A study of Homo sapiens with 15 samples.

Results

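The compounds BAQ12O and BAQ12 were compared directly in MIA PaCa-2, an established human pancreatic carcinoma cell line, at the same dose and the same time. The comparison rests on 6 of the 15 RNA sequencing libraries of the series, 3 of cells treated with BAQ12O at 5 µM for 24 h and 3 of cells treated with BAQ12 at 5 µM for 24 h, taken by the titles of the samples. The other 9 libraries came from cells given vehicle, Lys05 at 5 µM or BAQ13 at 5 µM, 3 libraries each. BAQ12 and BAQ13 belong to a class of lysosome-seeking compounds that the study made by joining structural parts of Lys05, a bisaminoquinoline autophagy inhibitor, and of the lysosomotropic detergent MSDH, and that assemble into nanoparticles on their own. BAQ12O is named in the sample labels, the series' design text writes 12O, and the methods describe no compound of that name, so nothing is said here of how its structure differs from that of BAQ12. The sources do not say that the 3 libraries of a group came from separate cultures, so the p-values measure the spread between these libraries, which may be technical.

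Human mitochondria keep a small circular genome of their own, which encodes subunits of the respiratory chain and of ATP synthase, the ribosomal RNAs of the mitochondrial ribosome and a set of transfer RNAs. Both strands are transcribed into long precursors, and the tRNA sequences that lie between the genes mark where the precursors are cut. Cholesterol is made in the cytoplasm and endoplasmic reticulum from acetyl-CoA through mevalonate and squalene, and the genes of this pathway are switched on together by the SREBP factors when sterol at the endoplasmic reticulum is low. Compounds that gather in acidic lysosomes are known to hold back cholesterol there.

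Each of the 15 libraries held between 1586566 and 2500551 reads on genes. VIM was listed at 9198.2 to 10711 in the 6 libraries and KRT18 at 648.0 to 857.9, while CDKN2A and MTAP, which are deleted in this line, were at 0 in all 15 libraries. Of the 8 leukocyte markers, 3 were at 0 throughout and the summed level of the 8 was between 6.8 and 17.2 in the 6 libraries. The 9 fibroblast markers, 5 of them at 0 throughout, summed to 217.7 to 242.6 with BAQ12O and 177.9 to 200.6 with BAQ12. The 5 endothelial markers, 3 of them at 0, summed to 67.55 to 75.32 and 23.87 to 57.78. CDH5, the only 1 of these 5 tested, had a log2 difference of 0.77, or 0.37 without BAQ12 replicate 3, and was not called. Replicate 3 of BAQ12 stood apart from every other library: 918 genes (8.75% of the 10495 tested) lay over 2-fold above or below both other BAQ12 libraries, against 45 to 159 genes in the other 14 libraries. Its correlation with its own group across genes was 0.930 to 0.939, the lowest of the series. The correlation of its deviation with the GC content of the transcripts across genes was 0.262, the largest in size of the 15 libraries. The next in size were −0.251 in BAQ13 replicate 3 and −0.22 in BAQ12 replicate 1. Deviations are taken within a group, so the value of BAQ12 replicate 1 is not separate from that of replicate 3. Over the genes of highest GC content, the median deviation of replicate 3 was 0.333. The next in size were −0.162 in BAQ12 replicate 1 and 0.147 in BAQ13 replicate 1. Mitochondrial genes took 20.6% of its reads, 15.8% and 16.4% in the other BAQ12 libraries and 19.0% to 20.4% with BAQ12O. What sets this library apart was not tested, and the values of most genes named below are therefore given with it and without it.

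BAQ12O and BAQ12 left the cells with different amounts of mitochondrial mRNA. Few other differences passed the test in the limma fits with and without BAQ12 replicate 3. All 12 mRNAs encoded on the plus strand of the mitochondrial genome rose with BAQ12O relative to BAQ12, with a median log2 difference of 1.07, and 1.21 without BAQ12 replicate 3. With limma over all 15 libraries, 21 genes were higher (0.2%) and 3 lower (0.0286%) with BAQ12O at a Benjamini-Hochberg adjusted p under 0.05, together 0.229% of the 10495 genes tested. Without BAQ12 replicate 3, 43 genes were higher (0.41%) and 11 lower (0.105%), together 0.515%, and 22 genes were called both times, all in the same direction, which is 91.7% of the shorter list and 40.7% of the longer one. Genes of the mitochondrial genome made up 13 of the 24 and 18 of the 54. By the study's own kind of threshold, 2-fold or more with p at most 0.05 before adjustment, there were 35 genes higher and 15 lower (0.476%), or 58 higher and 20 lower (0.743%) without the replicate. The number of genes at an adjusted p under 0.05 depended on the setting. It was 467 with array weights and 8 with only the 6 libraries compared. With BAQ12 replicate 3 dropped, it was 176 with the 5 libraries left and 288 when BAQ13 replicate 1 was left out too.

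MT-ND3 (chrM:10059-10404, plus strand, GRCh38), a subunit of respiratory complex I, showed the widest gap among the mitochondrial mRNAs over all 15 libraries. Its deposited value, a read count divided by the size factor of the library, was 5874.8, 5856.7 and 7174.6 with BAQ12O and 2314.8, 2407.3 and 2142.9 with BAQ12. Vehicle libraries held 9729.5, 10324 and 10062. Every BAQ12O library was thus above every BAQ12 library and below every vehicle library, an order in which the groups do not overlap. Over all genes tested, every BAQ12O library was above every BAQ12 library for 6.17% and below for 4.94%. The log2 difference between BAQ12O and BAQ12 was 1.46 (SE 0.09, limma adjusted p = 3.9e-08), and 1.41 (SE 0.08, adjusted p = 3.3e-13) without BAQ12 replicate 3.

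The other complex I subunits read from that strand followed the same order. MT-ND1 was at 3397.7, 3320.7 and 3704.5 with BAQ12O and at 1518.8, 1517.3 and 1826.3 with BAQ12, a log2 difference of 1.10 (SE 0.08, limma adjusted p = 2.8e-07). MT-ND4L was at 1670.8, 1794.3 and 2083.2 with BAQ12O and at 709.9, 707.2 and 868.0 with BAQ12, a log2 difference of 1.28 (SE 0.10, limma adjusted p = 5.5e-07). In both, the highest BAQ12 library is replicate 3, and it is still far below the lowest BAQ12O library. Without it the differences of MT-ND1 and MT-ND4L were 1.19 and 1.38. MT-ND2, MT-ND4 and MT-ND5 differed by 1.18, 1.08 and 1.05 on the log2 scale with all libraries and by 1.34, 1.23 and 1.22 without replicate 3. MT-ND4L and MT-ND4 overlap by a few bases, and MT-ATP8 (chrM:8366-8572) and MT-ATP6 (chrM:8527-9207) over a longer stretch. The counts within each pair are therefore not fully separate.

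MT-CYB, the cytochrome b of complex III, was at 6279.1, 6185.6 and 7901.2 with BAQ12O and at 2953.2, 3346.5 and 4107.4 with BAQ12, and differed by 0.97 on the log2 scale (SE 0.11, limma adjusted p = 9.4e-05), or by 1.10 without replicate 3. The ATP synthase subunits MT-ATP8 and MT-ATP6 each differed by 1.06, and by 1.23 and 1.18 without replicate 3. Among the catalytic subunits of cytochrome c oxidase, MT-CO1 had the narrowest gap of the 12 mRNAs over all 15 libraries, 0.75 on the log2 scale, and MT-CO3 differed by 0.85. Without replicate 3 these were 0.82 and 1.07, and MT-CO2 had the narrowest gap. MT-CO2 (chrM:7586-8269) was the mRNA that depended most on BAQ12 replicate 3. Its values were 3289.9, 2780.1 and 2884.2 with BAQ12O and 1895.7, 1632.9 and 900.6 with BAQ12, the last being replicate 3. The log2 difference was 1.08 (limma adjusted p = 0.019) with that library and 0.76 (adjusted p = 7.0e-05) without it.

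**Figure D1:**
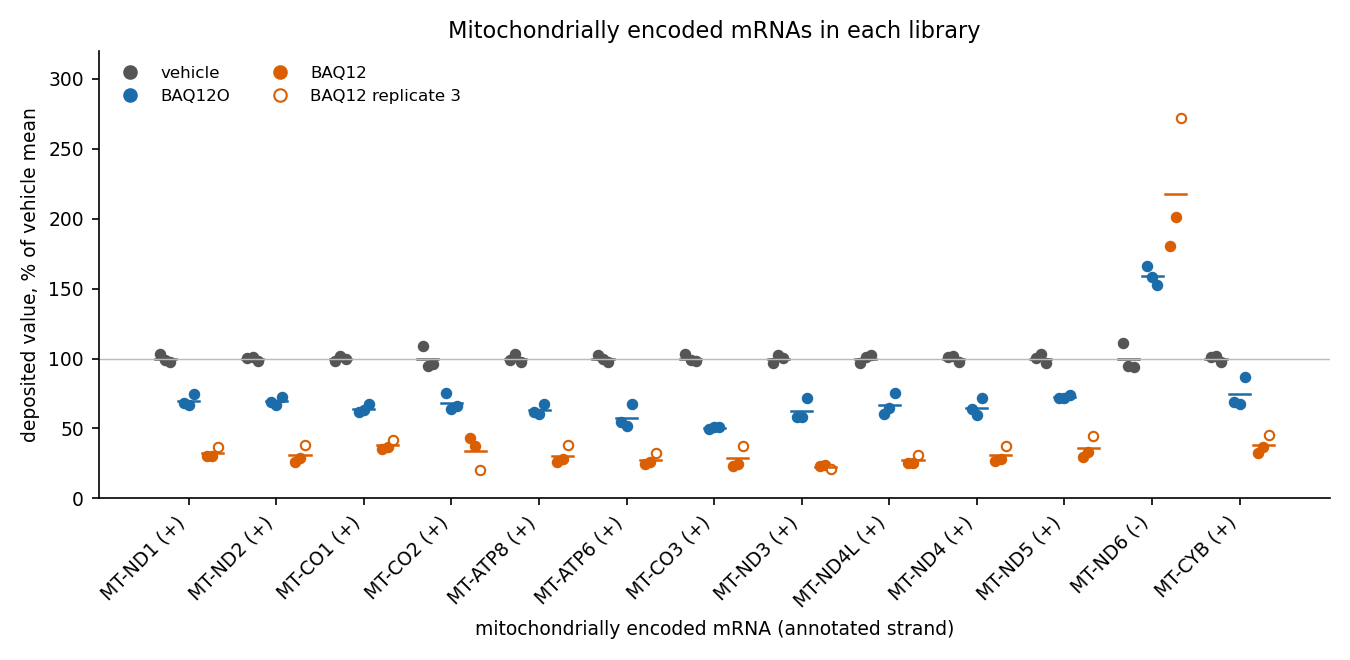
Deposited value of the 13 mitochondrially encoded mRNAs in each vehicle, BAQ12O and BAQ12 library, as a percentage of the vehicle mean; each point is a library, each bar a group mean, and the open point is BAQ12 replicate 3. The 12 mRNAs of the plus strand have BAQ12O means at 50.4% to 74.4% of vehicle and BAQ12 means at 22.8% to 38.1%, and MT-ND6 of the minus strand has both above 100%.

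Relative to vehicle, both compounds lowered these transcripts, and BAQ12 did so further. Both comparisons share the vehicle libraries. Summed over the 12 mRNAs, the level was 60.5% to 69.3% of the vehicle mean in the BAQ12O libraries and 27.3% to 36.5% in the BAQ12 libraries, the highest of which was replicate 3. The group means were 64.0% ± 4.66 (SD, n = 3) and 30.9% ± 4.89 (SD, n = 3), and 28.1% over the other 2 BAQ12 libraries. The exact permutation test on the summed values, two-sided, gave p = 0.1, the smallest that 3 libraries against 3 allow. Over all 15 libraries limma called 9 of the 12 mRNAs lower with BAQ12O than with vehicle (0.543% of all genes) and all 12 lower with BAQ12 (0.41%). In the fit without BAQ12 replicate 3, all 12 mRNAs fell against vehicle with BAQ12O, where 2.31% of all genes were called lower, and all 12 fell with BAQ12, where 0.562% were.

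MT-ND6, the complex I subunit encoded on the minus strand, did not follow the other mRNAs. Its value was 840.8, 803.7 and 774.8 with BAQ12O, 915.3, 1018 and 1379 with BAQ12 and 476.4 to 562.9 with vehicle. It was thus above vehicle with both compounds, at 159% of the vehicle mean with BAQ12O and 218% with BAQ12, and every BAQ12O library was below every BAQ12 library. The log2 difference was −0.43 (95% interval −0.70 to −0.17, limma adjusted p = 0.30), and −0.26 (−0.45 to −0.07, adjusted p = 0.22) without BAQ12 replicate 3, so no change was called in these 2 fits. All 13 mitochondrial mRNAs, MT-ND6 included, were called with array weights. The same 13 were called when BAQ12 replicate 3 and BAQ13 replicate 1 were both left out. The setting with which strand was read at counting is not given in the sources used here, and reads from the opposite strands cannot then be told apart.

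The ribosomal RNAs of the mitochondrion did not show the gap of the mRNAs that lie on the same strand. MT-RNR1 and MT-RNR2 together were at 129.7% to 146.3% of the vehicle mean with BAQ12O and at 118.8% to 162.1% with BAQ12, so the groups overlap. The log2 difference was −0.03 for MT-RNR1 (95% interval −0.27 to 0.21) and 0.06 for MT-RNR2 (−0.15 to 0.26). Without BAQ12 replicate 3 these became 0.15 (0.01 to 0.29) and 0.18 (0.04 to 0.32), with adjusted p of 0.39 and 0.26 in limma, and both intervals lie below the smallest difference found for a plus-strand mRNA.

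Transfer RNA genes went both ways, and 2 of them are shown here because they were called in opposite directions. The sequences are those of GENCODE release 29 (GRCh38), 5′ to 3′, with the bases shared with a neighbouring gene in capitals. MT-TI carries isoleucine and lies at chrM:4263-4331 on the plus strand, and MT-TC carries cysteine and lies at chrM:5761-5826 on the minus strand.
MT-TI: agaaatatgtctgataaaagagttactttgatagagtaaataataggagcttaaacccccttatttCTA
MT-TC: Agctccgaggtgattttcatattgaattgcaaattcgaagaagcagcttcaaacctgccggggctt
The 3 capital bases of MT-TI lie under the gene of the opposite strand, MT-TQ, and the capital base of MT-TC belongs also to MT-TY. MT-ND1 ends at chrM:4262, the base before MT-TI begins, and how reads that span both were counted was not tested.

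MT-TI was at 142.3, 132.5 and 118.6 with BAQ12O, 66.0, 52.7 and 41.5 with BAQ12 and 103.8 to 129.5 with vehicle. Every BAQ12O library was above every BAQ12 library, and the log2 difference was 1.30 (SE 0.20, limma adjusted p = 0.0040), or 1.13 without BAQ12 replicate 3. MT-TC was at 163.9, 195.5 and 179.2 with BAQ12O and at 316.4, 326.4 and 139.4 with BAQ12, where replicate 3 is the low value, and at 73.1 to 79.9 with vehicle. Its log2 difference was −0.44 (adjusted p = 0.62) over all libraries and −0.84 (SE 0.12, limma adjusted p = 7.0e-05) without replicate 3. With that library kept, it was called only when libraries were weighted by their spread (array weights).

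Of the 18 mitochondrial tRNA genes that passed the filter on low counts, 1 was called higher over all libraries (0.2% of all genes). Without BAQ12 replicate 3, 5 were called higher (0.41% of all genes) and 1 lower (0.105%). The further ones called higher without it were MT-TL1 (log2 difference 0.64), MT-TM (0.64), MT-TS2 (1.08) and, on the minus strand, MT-TP (0.64). In each of these, replicate 3 of BAQ12 was the highest of the 6 libraries. MT-TS2, for example, was at 278.1, 302.2 and 324.0 with BAQ12O and at 123.8, 163.2 and 325.3 with BAQ12. MT-TW and MT-TD, with at most 2 reads in a library of the 6, and MT-TN and MT-TK, at 0 in all 15 libraries, were the 4 not tested.

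**Figure D2:**
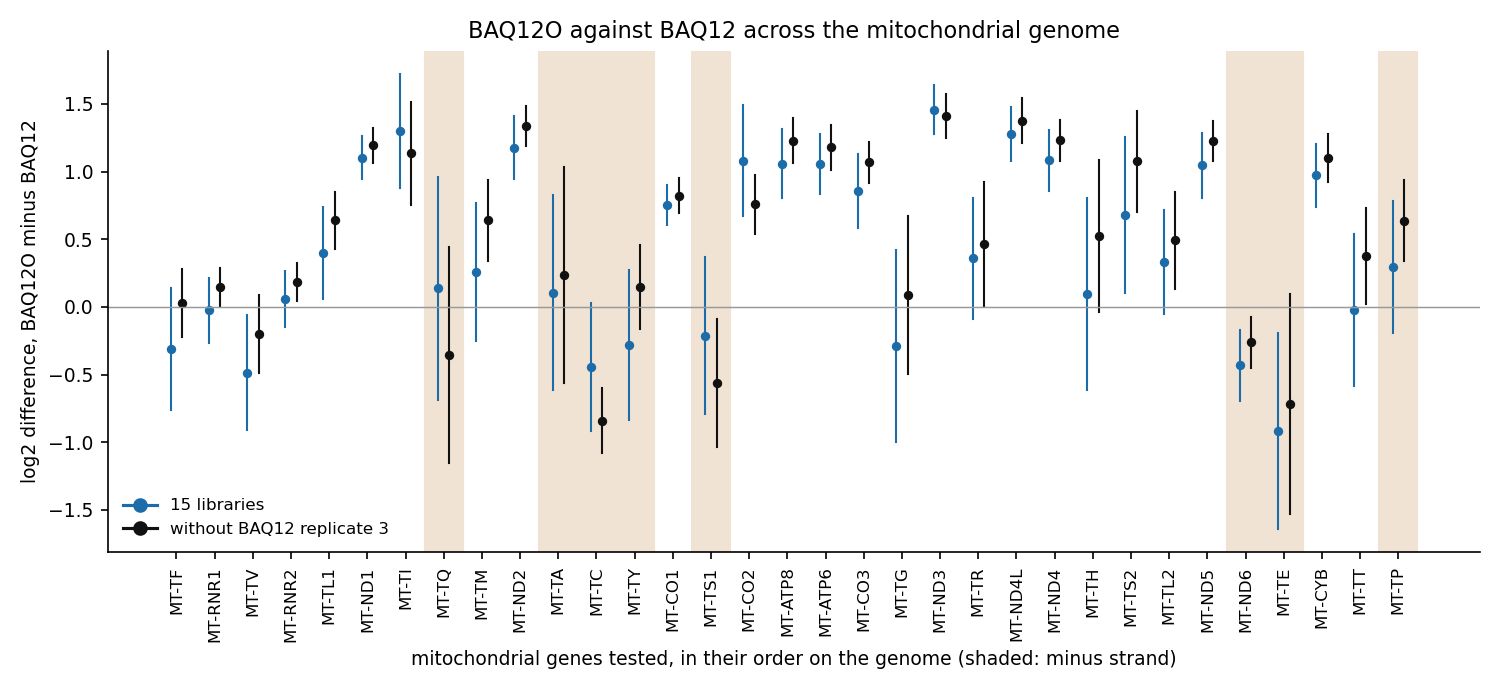
Log2 difference between BAQ12O and BAQ12 for the 33 mitochondrial genes tested, in their order on the genome, with 95% intervals from limma; blue points are from all 15 libraries, black points from the fit without BAQ12 replicate 3, and shading marks the minus strand. The 12 plus-strand mRNAs lie between 0.75 and 1.46 in blue, the rRNAs near 0, and MT-ND6 and MT-TC below 0.

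Nuclear copies of mitochondrial genes were among the calls. Others were not called, such as MTND4P12 (limma adjusted p = 0.80, and 0.24 without BAQ12 replicate 3). MTATP6P1, MTATP8P1 and MTND2P28 lie within chr1:629640-634376 and are pseudogenes close in sequence to MT-ATP6, MT-ATP8 and MT-ND2. Over the bases compared they matched the mitochondrial gene at 98.5%, 97.6% and 98.4% of bases. MT-ATP8 and its copy are printed because they show how few bases set the 2 apart, 5 of 207, which are in capitals (GENCODE release 29, chrM:8366-8572 and chr1:633535-633741, both on the plus strand).
MT-ATP8: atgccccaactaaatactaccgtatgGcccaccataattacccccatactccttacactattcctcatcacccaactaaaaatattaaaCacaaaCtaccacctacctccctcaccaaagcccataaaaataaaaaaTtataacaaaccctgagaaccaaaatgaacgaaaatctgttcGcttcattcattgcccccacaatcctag
MTATP8P1: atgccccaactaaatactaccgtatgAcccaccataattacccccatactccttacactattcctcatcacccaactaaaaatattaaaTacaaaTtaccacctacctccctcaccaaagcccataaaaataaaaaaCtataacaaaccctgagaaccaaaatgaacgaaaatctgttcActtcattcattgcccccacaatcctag

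MTATP6P1 was at 185.4, 166.8 and 199.9 with BAQ12O, 69.7, 81.6 and 81.6 with BAQ12 and 227.6 to 282.3 with vehicle, a log2 difference of 1.23 (limma adjusted p = 1.4e-05), or 1.27 without BAQ12 replicate 3. MTND2P28 differed by 1.23 (adjusted p = 0.030), or 1.22 without it. MTATP8P1 was not called with that library (adjusted p = 0.48) and differed by 2.19 (adjusted p = 0.028) without it, on 10, 15 and 12 reads against 5 and 1. Reads of the mitochondrial genes and of these copies can be swapped at alignment, so the pseudogene values are uncertain and are not separate evidence.

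The order of the compounds for the summed 12 mRNAs was vehicle, BAQ12O, BAQ13, BAQ12 and Lys05. BAQ13 was at 37.9% ± 2.46 (SD, n = 3) of the vehicle mean and Lys05 at 22.0% ± 0.73. At the same dose and time, 11 of the 12 mRNAs were higher with BAQ12O than with BAQ13 in limma, where 0.467% of all genes were called higher, with a median log2 difference of 0.78, and all 12 without BAQ12 replicate 3 (1.62%). Between BAQ13 and BAQ12, 2 of the 12 were called higher with BAQ13 (0.505% of all genes) and 10 without BAQ12 replicate 3 (1.71%), with medians of 0.31 and 0.43. BAQ12 replicate 3, at 36.5%, lay within the range of the BAQ13 libraries, 36.4% to 40.7%, and the other BAQ12 libraries lay below it. The p-values of these 3 pairs of compounds were adjusted over genes and not over the pairs, and the pairs share libraries.

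**Figure D3:**
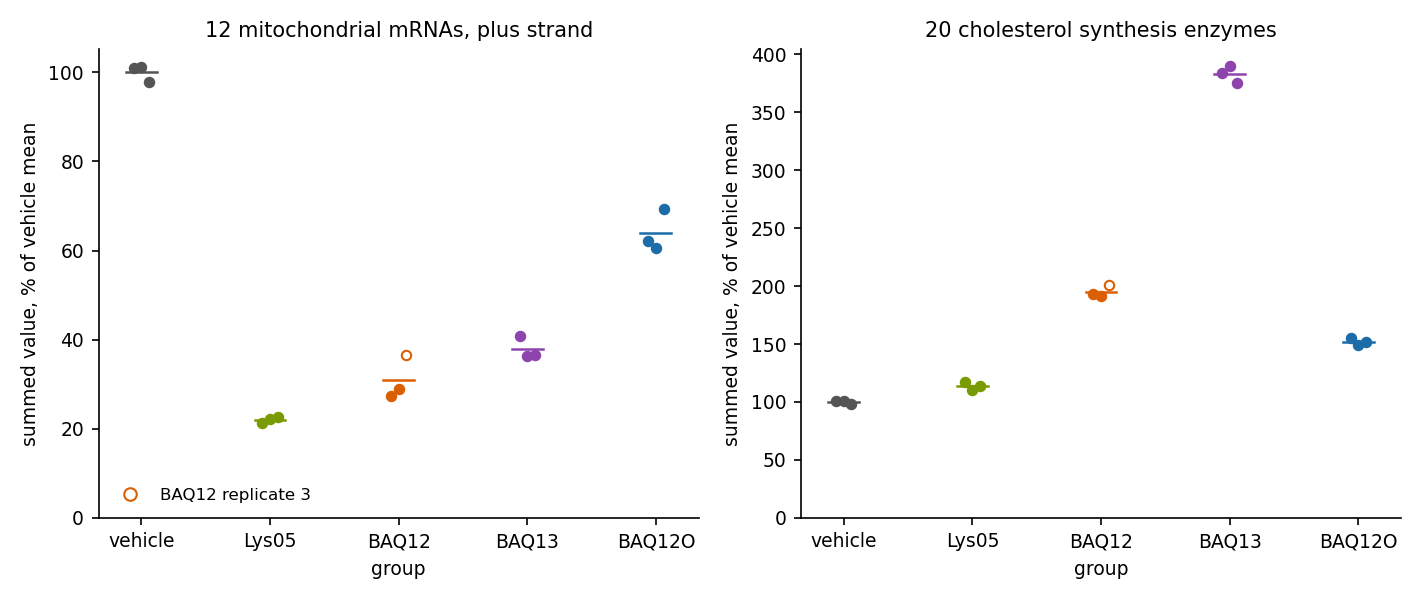
Summed deposited values of the 12 plus-strand mitochondrial mRNAs (left) and of the 20 cholesterol synthesis enzymes (right) in each of the 15 libraries, as a percentage of the vehicle mean; points are libraries, bars are group means, and the open point is BAQ12 replicate 3. BAQ12O has the mitochondrial sum nearest to vehicle, at 64.0%, and a cholesterol enzyme sum of 152%, below BAQ12 at 195% and BAQ13 at 383%.

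Nuclear genes that act in mitochondria did not show a like difference. Of 24 factors tested for transcription, processing and decay of mitochondrial RNA, such as TFAM and POLRMT, 0 were called by limma, edgeR or DESeq2 and 1 had an unadjusted p under 0.05, with a median log2 difference of 0.00, against 0.00 over all genes tested. Without BAQ12 replicate 3 the median was −0.045, against −0.01 over all genes. Every BAQ12O library was in that case below both BAQ12 libraries for 6 of the 24 (15.8% of all genes) and above both for 1 (14.6%). Of 69 nuclear-encoded subunits of the respiratory chain and ATP synthase, 0 were called over all libraries by any of these tools and 1 was lower without BAQ12 replicate 3, the complex II subunit SDHC. At an unadjusted p under 0.05 there were 7 of the 69 (10.1%, against 8.38% of all genes), and 14 (20.3%, against 12.2%) without that library. Every BAQ12O library was then below both BAQ12 libraries for 24 of the 69, against 15.8% of all genes. Their median log2 difference was −0.07 in both fits, and the 95% interval stayed within 2-fold for 67 of the 69. These lists were added after the mitochondrial result had been seen. SDHC was at 166.0, 149.7 and 151.6 with BAQ12O and at 266.0, 223.6 and 109.3 with BAQ12, so replicate 3 lies on the far side of the BAQ12O libraries, and its log2 difference was −0.26 with that library and −0.64 (limma adjusted p = 0.032) without it.

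Of the lists with at least 5 genes tested, the cholesterol synthesis enzymes had the lowest median. With BAQ12O, 18 of the 20 enzymes were below BAQ12 by fitted difference, with a median log2 difference of −0.20 and 0 members called by limma or edgeR over all 15 libraries. DESeq2 called 1, FDPS, and 7 had an unadjusted p under 0.05 in limma (35%, against 8.38% of all genes), or 10 (50%, against 12.2%) without BAQ12 replicate 3. Without BAQ12 replicate 3 the median was −0.31, and HMGCS1, FDPS and FDFT1 were called lower, where 0.105% of all genes were. The median over all genes tested was 0.00 and −0.01 in the same fits. Summed over the list, the value was 2698, 2597 and 2647 with BAQ12O and 3355, 3332 and 3491 with BAQ12, and 1705 to 1762 with vehicle. The BAQ12O libraries were thus all between the vehicle and the BAQ12 libraries (exact permutation test against BAQ12, two-sided, p = 0.1, the smallest the design allows).

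HMGCS1, which makes the HMG-CoA that enters the mevalonate pathway, was at 102.4, 103.0 and 91.0 with BAQ12O, 182.5, 152.2 and 71.6 with BAQ12 and 55.1 to 59.8 with vehicle. Replicate 3 of BAQ12 was the lowest of the 6 libraries, whereas the other 2 were the highest. The log2 difference was −0.35 (limma adjusted p = 0.69) with it and −0.75 (SE 0.12, adjusted p = 0.00083) without it. FDPS, the farnesyl diphosphate synthase, was at 476.5, 496.7 and 463.2 with BAQ12O and at 662.2, 640.1 and 1041 with BAQ12, with replicate 3 now the highest. All BAQ12O libraries were below all BAQ12 libraries, with a log2 difference of −0.67 (adjusted p = 0.078) over all libraries and −0.44 (SE 0.09, limma adjusted p = 0.016) without replicate 3. FDFT1, the squalene synthase, was at 388.1, 277.4 and 322.6 with BAQ12O and at 459.5, 476.0 and 364.3 with BAQ12, and its difference was −0.40 (adjusted p = 0.33) with replicate 3 and −0.52 (adjusted p = 0.0096) in the limma fit without it.

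BAQ13 stood further from BAQ12O than BAQ12 did on this list. With BAQ12O, 16 of the 20 enzymes were lower than with BAQ13 (0.924% of all genes; 18 and 2.07% without BAQ12 replicate 3), with a median log2 difference of −1.15.

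Other steps of the pathway had values with the same sign that did not pass the test. LSS, the lanosterol synthase, was at 70.1, 79.1 and 67.6 with BAQ12O and at 102.7, 90.1 and 150.7 with BAQ12, a log2 difference of −0.63 (SE 0.18, limma adjusted p = 0.30). Without BAQ12 replicate 3 its difference was −0.41 (adjusted p = 0.28). The 12 genes tested for sterol sensing and uptake had a median of the other sign, 0.23 with 9 of 12 positive, or 0.09 with 7 of 12 positive without replicate 3. Of these, 0 were called by limma in either fit or by edgeR or DESeq2, and 3 (25%, against 8.38% of all genes) and 2 (16.7%, against 12.2%) had an unadjusted p under 0.05. ACLY, which supplies acetyl-CoA for sterol and fatty acid synthesis, was at 368.7, 324.2 and 318.5 with BAQ12O and 510.8, 468.4 and 329.1 with BAQ12. Its log2 difference was −0.35 (limma adjusted p = 0.51) with replicate 3 and −0.54 (limma adjusted p = 0.0096) without it. Of 17 tested genes of fatty acid synthesis and desaturation, only ACLY was called without replicate 3, and 0 were called over all 15 libraries. Array weights called 3 of the 17.

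**Figure D4:**
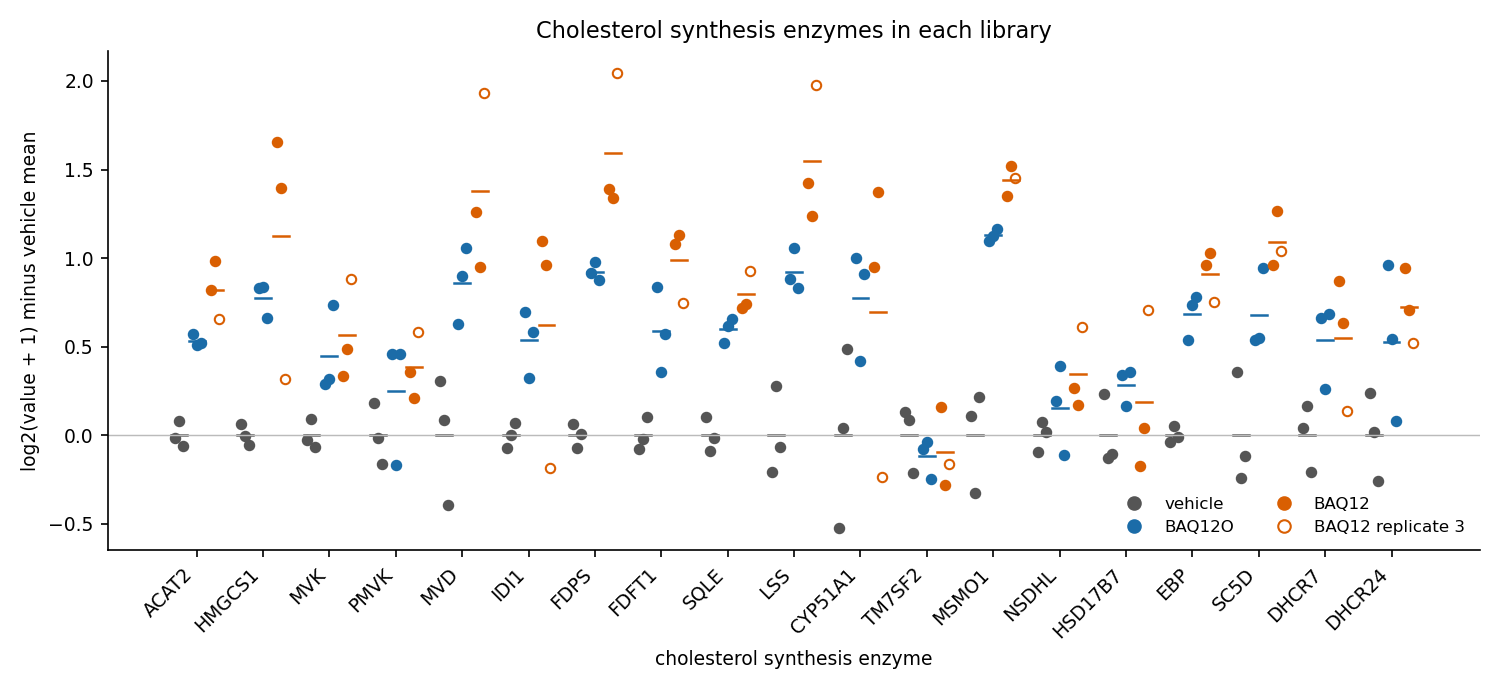
Log2(value + 1) of 19 cholesterol synthesis enzymes minus the vehicle mean, in each vehicle, BAQ12O and BAQ12 library; points are libraries, bars are group means, and open points are BAQ12 replicate 3. The BAQ12O means lie above vehicle for 18 of the 19 enzymes drawn and below the BAQ12 means for 17, and the open points are often far from the other BAQ12 libraries.

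Bases before the start of FDPS and HMGCS1 are printed because limma called both without BAQ12 replicate 3 and their promoters carry the CCAAT sequence. The NF-Y factor is known to bind this sequence. FDFT1, called in the same fit, is not shown. The printed bases were thus picked partly for holding the sequence. These bases come from RefSeq (GRCh38.p14), 5′ to 3′ on the gene's strand, at chr1:155308616-155308747 on the plus strand and chr5:43313513-43313662 on the minus strand, and end where the gene begins in GENCODE. CCAAT or its reverse complement ATTGG is in capitals. Of the 2 promoters of HMGCS1 in the table, the one with more matches is shown.
FDPS: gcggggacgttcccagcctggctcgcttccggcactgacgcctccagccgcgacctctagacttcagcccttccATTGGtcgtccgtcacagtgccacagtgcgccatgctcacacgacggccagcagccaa
HMGCS1: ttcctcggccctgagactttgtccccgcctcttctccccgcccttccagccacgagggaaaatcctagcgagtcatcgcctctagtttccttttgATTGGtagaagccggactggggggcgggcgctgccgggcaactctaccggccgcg
Of the 20 list members, 15 had a promoter in the table, 20 promoters in all. In the 250 bases before the RefSeq start, 15 of these 20 held CCAAT on either strand, against 32% of all 35116 promoters. The SREBP-type sequence TCACNCCAC, on either strand, was in 0 of the 20 and in 0.883% of all promoters. A match describes letters and not a bound site, and no match says only that these letters are not in this window.

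Outside the mitochondrial genome, its nuclear copies and sterol synthesis, the calls were single genes of varied function. NEAT1, the long noncoding RNA that scaffolds nuclear paraspeckles, was at 2967, 2828 and 2631 with BAQ12O, 1954, 1936 and 2025 with BAQ12 and 1431 to 1597 with vehicle. The groups do not overlap, and the log2 difference was 0.51 (SE 0.07, limma adjusted p = 0.00088), or 0.53 without BAQ12 replicate 3. SLC20A1, a phosphate carrier of the plasma membrane, was at 786.9, 804.7 and 763.8 with BAQ12O and 600.7, 606.1 and 606.7 with BAQ12, a log2 difference of 0.38 in both fits (limma adjusted p = 0.019 with all libraries). EPHA4, an ephrin receptor, was at 385.9, 378.5 and 408.1 with BAQ12O and 281.6, 298.4 and 239.9 with BAQ12. It differed by 0.52 on the log2 scale (adjusted p = 0.033), or by 0.43 without replicate 3.

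NABP1, a single-stranded DNA binding protein, stood at 35.6, 38.1 and 31.7 with BAQ12O and 19.3, 16.2 and 20.1 with BAQ12, while vehicle libraries held 31.5 to 34.9. BAQ12O was thus close to vehicle and BAQ12 below it, with a log2 difference between the compounds of 0.89 (limma adjusted p = 0.033), or 0.95 without replicate 3. GABPB1-AS1, an antisense RNA, and CTD-2228K2.7, a noncoding transcript, differed by 0.59 (adjusted p = 0.049) and 0.79 (adjusted p = 0.033) on the log2 scale, or by 0.66 and 0.67 without replicate 3. CTD-2228K2.7 was above vehicle with both compounds, at 94.9, 100.1 and 111.7 with BAQ12O, 61.4, 66.3 and 49.0 with BAQ12 and 31.2 to 38.0 with vehicle, and its adjusted p was 0.057 without BAQ12 replicate 3.

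Only 3 genes were lower with BAQ12O over all 15 libraries. AMOTL2, an angiomotin family protein and a known target of YAP, was at 87.3, 82.0 and 60.7 with BAQ12O, 142.2, 121.6 and 135.7 with BAQ12 and 129.5 to 158.8 with vehicle, a log2 difference of −0.80 (SE 0.14, limma adjusted p = 0.019), or −0.79 without replicate 3. HNRNPAB, an RNA-binding protein, was at 256.6, 270.8 and 228.9 with BAQ12O and 344.8, 354.5 and 350.4 with BAQ12, near the vehicle values of 372.7 to 380.8, and differed by −0.47 in both fits (adjusted p = 0.030 with all libraries). In both genes BAQ12 was close to vehicle and BAQ12O below it, and neither group overlapped the other.

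CHMP6, an ESCRT-III subunit of endosomal sorting, had 1, 1 and 2 reads with BAQ12O and 8, 11 and 14 with BAQ12. The ratio of the summed reads, scaled for size factors, was 0.14 (exact 95% interval 0.035 to 0.39, counting error only). Its limma adjusted p was 0.019 over all libraries and 0.057 without BAQ12 replicate 3, so the call is lost when that library is dropped. UHRF1, a maintenance factor of DNA methylation, had 2, 3 and 0 reads with BAQ12O and 14, 9 and 6 with BAQ12, a ratio of 0.20 (0.059 to 0.51), and its limma adjusted p was 0.11 with replicate 3 and 0.049 without it.

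A further 32 genes were called without BAQ12 replicate 3 and not over all 15 libraries. With that library kept, all 32 were called under array weights, and 3 of them, FDPS, KCNQ1OT1 and SRRM1P2, in at least 1 other setting. NRP2, a neuropilin receptor for semaphorins and VEGF, was at 374.0, 402.3 and 348.8 with BAQ12O and at 191.7, 199.8 and 353.0 with BAQ12, where replicate 3 reached the BAQ12O range. Its log2 difference was 0.93 (SE 0.11, limma adjusted p = 4.3e-06) without that library and 0.65 (adjusted p = 0.25) with it. KCNQ1OT1, an imprinted antisense RNA, differed by 0.91 (adjusted p = 0.00066) without and 0.70 with it, and the orphan receptor GPRC5A by 0.42 (adjusted p = 0.00055) without and 0.31 with it. ODC1, the enzyme that opens polyamine synthesis, was at 49.6, 33.4 and 37.2 with BAQ12O, 71.5, 78.2 and 41.4 with BAQ12 and 78.0 to 99.4 with vehicle. Its log2 difference between the compounds was −0.90 (adjusted p = 0.0089) without and −0.62 with replicate 3. The splicing factor SRSF9 differed by −0.43 (adjusted p = 0.030) without and −0.22 with it. Those also higher in that fit, with the difference without replicate 3, included the homeobox genes SHOX2 (0.35) and LHX1 (0.58), the cyclin CCNL2 (0.44), NKTR (0.44), the dynein heavy chain DYNC1H1 (0.45), the small Cajal body RNA SCARNA22 (0.51), the small nucleolar RNA SNORD13 (0.91) and RNU4ATAC (0.60), an RNA of the minor spliceosome.

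The groups of genes by which the compounds were studied held no called member in the limma fits with and without BAQ12 replicate 3. Among 35 lysosomal hydrolases and activators, 12 cathepsins and cystatins, 21 lysosomal membrane proteins and 17 subunits of the V-ATPase, the proton pump of the lysosome, limma called 0 genes in either fit, and edgeR and DESeq2 called 0 as well. At an unadjusted p under 0.05, limma had 8 of these 85 genes (9.41%), or 11 (12.9%) without BAQ12 replicate 3, against 8.38% and 12.2% of all genes tested. By list, the share without that library ran from 0% of the V-ATPase genes to 41.7% (5 of 12) of the cathepsins and cystatins. The latter had 1 of 12 (8.33%) over all libraries, and without replicate 3 their differences were positive for 6 and negative for 6. Array weights, which gave 467 calls in all, called 5 of the 85. The median log2 differences of these lists were 0.13, 0.07, −0.02 and 0.00, and without BAQ12 replicate 3 they were 0.10, 0.04, −0.02 and −0.01. The 95% interval of the difference stayed within 2-fold for 16 of the 17 V-ATPase genes and for 26 of the 35 hydrolases, against 84.2% of all genes tested. A p that misses the threshold does not show that the compounds act alike on these genes, and the intervals say how large a difference remains possible.

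LAMP2, a structural protein of the lysosomal membrane, was at 319.1, 301.3 and 339.2 with BAQ12O and 330.2, 332.4 and 311.5 with BAQ12, and the 95% interval of the log2 difference was −0.19 to 0.15, or −0.23 to 0.13 without BAQ12 replicate 3. LAMP1 had intervals of −0.28 to 0.22 and −0.27 to 0.23. The sialidase NEU1 differed by −0.27 (−0.67 to 0.13) with that library and by −0.42 (−0.82 to −0.02, limma adjusted p = 0.38) without it, so that the interval leaves out 0 though the gene was not called. CTSD, an aspartic protease, was at 626.3, 573.9 and 441.2 with BAQ12O and 445.7, 444.6 and 633.1 with BAQ12, a log2 difference of 0.11 (−0.19 to 0.41), and of 0.28 (0.05 to 0.51, limma adjusted p = 0.30) without replicate 3. The cysteine protease CTSL and the carboxypeptidase CTSZ show how much hangs on BAQ12 replicate 3. CTSL was at 172.6 to 204.0 with BAQ12O and at 244.0, 230.4 and 71.6 with BAQ12, and its log2 difference was 0.27 with replicate 3 and −0.30 without it. CTSZ was at 240.4 to 282.2 with BAQ12O and at 220.1, 263.5 and 615.5 with BAQ12, with differences of −0.37 and 0.08. The other cathepsins tested, CTSA, CTSB, CTSC, CTSH, CTSK and CTSV, were not called in either limma fit. CTSA differed by 0.05 (−0.32 to 0.41) over all libraries and by 0.29 (0.03 to 0.55, limma adjusted p = 0.35) without replicate 3.

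The 5 proapoptotic genes that the study names were not called either, and 0 had an unadjusted p under 0.05 in limma. BAX was at 62.5, 60.1 and 60.7 with BAQ12O, 55.0, 62.9 and 159.5 with BAQ12 and 64.8 to 67.9 with vehicle, and BBC3 (PUMA) was at 665.1, 630.2 and 624.5 with BAQ12O and 664.0, 629.0 and 190.9 with BAQ12. In both genes the libraries of the groups lie close together apart from BAQ12 replicate 3. Without it, the log2 difference of BAX was 0.05 (95% interval −0.32 to 0.42) and that of BBC3 −0.01 (−0.26 to 0.23). BAK1, BAD and BCL2L11 (BIM) had intervals of −0.69 to 0.27, −0.43 to 0.71 and −0.34 to 0.45 in that fit.

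Autophagy genes, whose products build the autophagosome and bring cargo to it, held 0 called members of 37 in the core machinery and 0 of 15 among receptors and ATG8 proteins. SQSTM1 (p62), an autophagy receptor, was at 489.4, 543.4 and 474.3 with BAQ12O, 399.0, 430.1 and 577.8 with BAQ12 and 282.3 to 312.1 with vehicle. Both compounds were thus above vehicle, and the log2 difference between them was 0.12 (95% interval −0.12 to 0.35, limma adjusted p = 0.82). Without BAQ12 replicate 3 it was 0.28 (0.10 to 0.45, limma adjusted p = 0.16), with every BAQ12O library above both BAQ12 libraries. The TFEB family and mTORC1 regulators (20 genes), the targets of ATF4 in the integrated stress response (31), the chaperones of the endoplasmic reticulum (26), heat shock genes (19), the BCL2 family (14), p53 targets (24), mitotic genes (45), glycolysis and hypoxia genes (31), oxidative stress defence (29) and metallothioneins with zinc transporters (12) each had 0 called members in both limma fits and in edgeR and DESeq2. Together with the autophagy lists they held 297 different genes. Of these, 29 (9.76%, against 8.38% of all genes tested) had an unadjusted limma p under 0.05. Without BAQ12 replicate 3 there were 47 (15.8%, against 12.2%). By list, the share in that fit ran from 0% of the p53 targets to 33.3% of the metallothioneins with zinc transporters. It was 30.8% for the chaperones of the endoplasmic reticulum, 26.7% for autophagy receptors and ATG8 proteins and 5.41% for the core machinery. Array weights called 11 of the 297, SQSTM1 and MT2A included. Of 43 genes of DNA replication, UHRF1 was the only one called in these fits, by limma without BAQ12 replicate 3 and not by edgeR or DESeq2. The medians of these lists lay between −0.12 and 0.19 in the 2 fits.

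**Figure D5:**
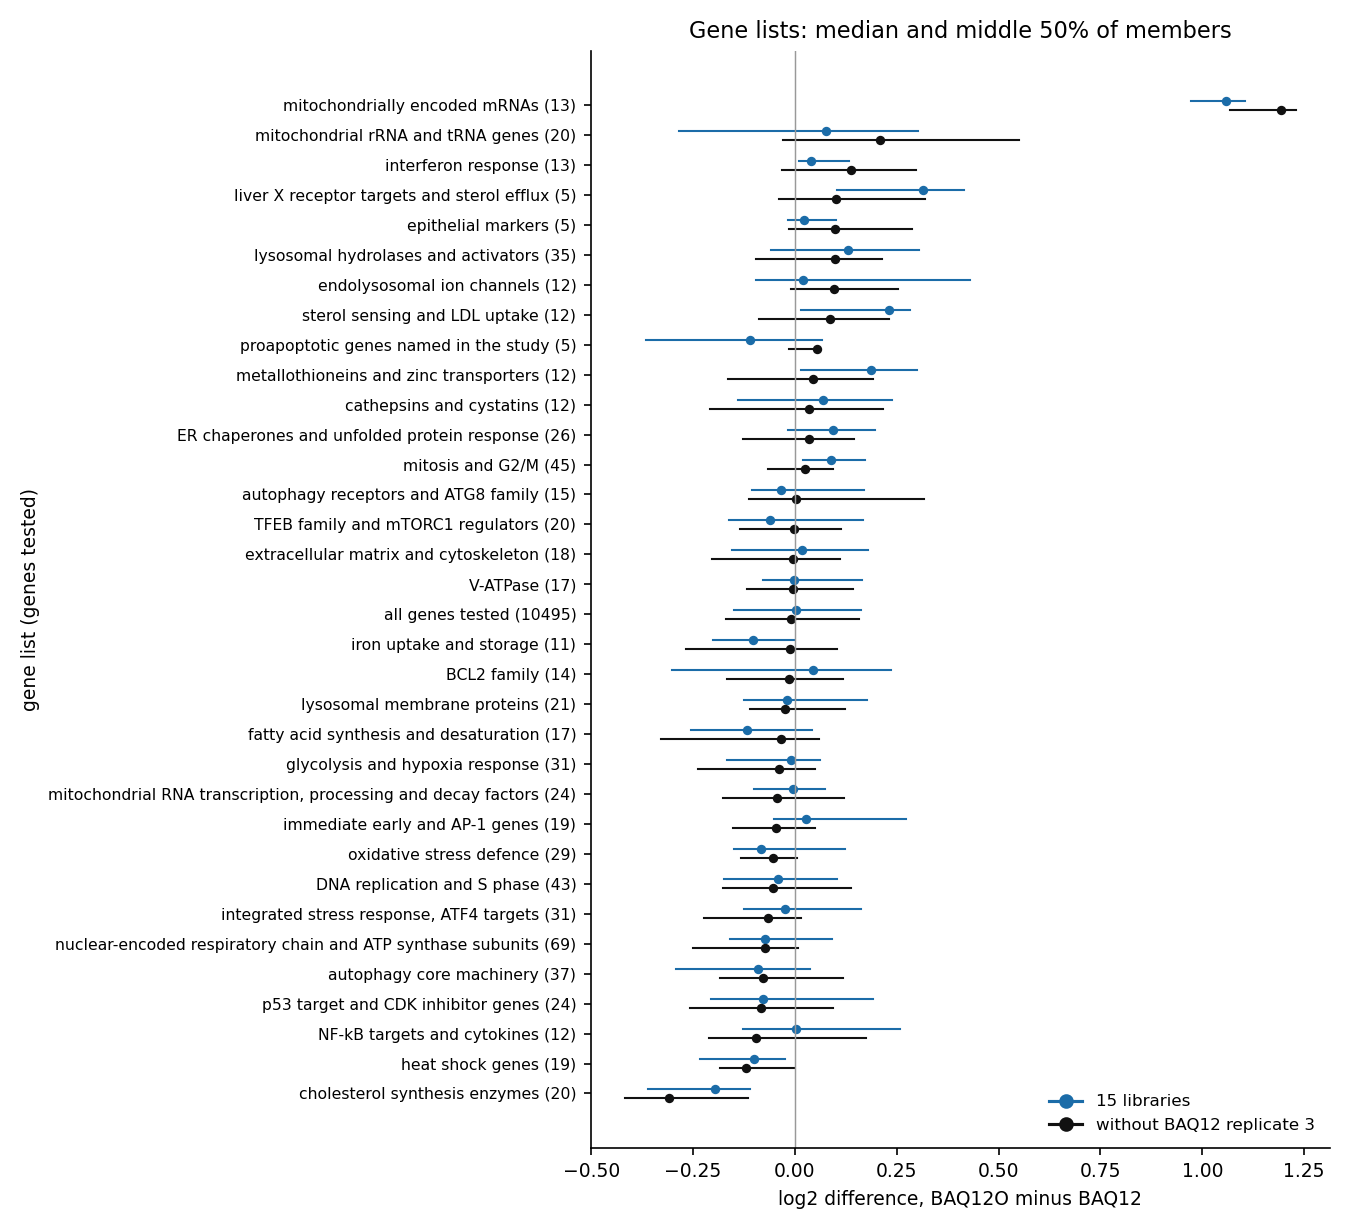
Median (point) and middle 50% (line) of the log2 difference between BAQ12O and BAQ12 over the members of each gene list with at least 5 genes tested, from all 15 libraries in blue and without BAQ12 replicate 3 in black. The mitochondrially encoded mRNAs, with medians of 1.06 and 1.19, lie apart from the other lists, and the cholesterol synthesis enzymes, at −0.20 and −0.31, have the lowest medians.

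Over all genes tested, the 95% interval of the difference between BAQ12O and BAQ12 lay within 2-fold for 8837 of 10495 (84.2%) and for 8776 (83.6%) without BAQ12 replicate 3. For the remaining genes a difference of 2-fold in at least 1 direction was not bounded at this depth and number of libraries. Against vehicle, and with the vehicle libraries shared, BAQ12O had 155 called genes (1.48%, of which 98 or 0.934% higher) and BAQ12 had 103 (0.981%, of which 60 or 0.572% higher). Without BAQ12 replicate 3, which is in neither group of the BAQ12O comparison but enters its estimate of the spread, these were 524 (4.99%, 2.69% higher) and 137 (1.31%, 0.743% higher). BAQ12O and BAQ13 differed at 146 genes (1.39%), or 387 (3.69%) in that fit, and BAQ13 and BAQ12 at 59 (0.562%) or 332 (3.16%).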

How the data were processed

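For each library the authors deposited a normalised signal for 60107 Ensembl identifiers. The submitters' processing notes name STAR, HTSeq, DESeq2 and GRCh38 (hg38), with roles and versions not given in the sources used here. The labels name a 3′ mRNA kit and the methods a stranded paired-end kit. In every library 100% of non-zero values were whole multiples (tolerance 0.01 read) of the smallest, so gene counts divided by a size factor had been deposited and whole reads were recovered (1586566 to 2500551 on genes). Genes kept by filterByExpr (minimum count 10, minimum total 15) numbered 10495.

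The difference was fitted with limma 3.58.1 (eBayes, variance trend) on log2(value + 1) over 15 libraries with 1 mean per group, and again over 14 without BAQ12 replicate 3. This scale understates changes of low genes. Adjusted p-values follow Benjamini and Hochberg over all genes tested. Groups and replicate numbers came from sample titles. Coordinates are from GENCODE release 29, which holds 56531 of the identifiers.

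Named genes were the 10 largest called and separated changes in each direction of each fit, up to 4 called members per list and direction or else its 2 members of highest mean, and genes the study names. Further called genes and the steps of the sterol pathway were named after their values were seen. The members and lists were chosen with earlier results of these data known. Alternatives were edgeR 4.0.16 and DESeq2 1.42.0 on the recovered reads, TMM factors, pseudocounts of 0.1 and 5, other filters, only the compared libraries, array weights, a replicate block and leaving out each library. The gene lists on mitochondrial RNA factors and nuclear respiratory subunits, GC correction, joint removal of BAQ12 replicate 3 and BAQ13 replicate 1, and the count tests without BAQ12 replicate 3 were added after seeing the data. On simulated libraries of this comparison (10495 genes, 100 changed by each fold), limma recovered 69% of 2-fold and 97% of 4-fold changes, with 14 false among 180 calls. The simulation gave every gene the same dispersion and held no library that stands apart as BAQ12 replicate 3 does. These rates therefore do not measure what the fits of the real libraries could recover. R 4.3.3 and Python were used. Intervals on reads cover counting error only. Single values of some genes are not reported here.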

Additional observations from a re-analysis of the deposited data

How the results depend on the processing

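The 24 calls between BAQ12O and BAQ12 stayed within 1.5 times under edgeR (23), DESeq2 (29), TMM factors, other pseudocounts, other filters and GC correction. They were 8 with only the 6 libraries compared and 467 with array weights, and, with BAQ12 replicate 3 dropped, 176 with the 5 libraries left, 56 with edgeR, 44 with DESeq2 and 288 when BAQ13 replicate 1 was left out too. The 50 genes past 2-fold were 16 with a pseudocount of 5, 451 with no filter, 13 with at least 10 reads in each library, 103 with array weights, 77 with the 5 libraries, 83 without both libraries and 96 with edgeR without BAQ12 replicate 3. The 8837 intervals within 2-fold were 14135 of 22539 genes with no filter. The 12 mitochondrial mRNAs called were 7 with only the 6 libraries, and 13, MT-ND6 included, with array weights and without both libraries. Cholesterol enzymes called, 0 in the report, were 1 with DESeq2, 6 with array weights (median −0.34), 4 with the 5 libraries, 5 without both libraries, and 3 with edgeR and 3 with DESeq2 without BAQ12 replicate 3. Of the 85 lysosomal genes and the 297 of the autophagy, stress and cell cycle lists, array weights called 5 and 11, the 5 libraries 0 and 6, and leaving out both libraries 1 and 12. The cause of these shifts was not tested.

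Leaving out each library in turn gave 14 to 54 calls, the highest without BAQ12 replicate 3, and 15, 14 and 16 without BAQ12O replicates 1, 2 and 3. The genes past 2-fold were 53 to 125, with 125 and 110 without BAQ12 replicates 1 and 2. The ranges were 7959 to 8776 for the intervals, 11 to 12 for the mitochondrial mRNAs called, 0.96 to 1.19 for their list's median, 0 to 3 for the cholesterol enzymes called and −0.31 to −0.21 for their median. Of the genes followed, 0 called values changed sign in the settings run, and 8 genes were called in each: MT-ATP6, MT-CO1, MT-ND1, MT-ND2, MT-ND3, MT-ND4, MT-ND4L and MTATP6P1.

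Deviations of BAQ12O and BAQ12 samples with the same replicate number had correlations of 0.0591, −0.063 and −0.0383. Samples with different numbers had −0.0744 to 0.0881. The BAQ12 deviations were taken from a mean that includes replicate 3, so these values cannot exclude a pairing. With a replicate block there were 16 calls. With the block and no BAQ12 replicate 3 there were 49 calls, 88 genes past 2-fold and 3 cholesterol enzymes called, and there were 14 calls with GC correction and the block. GC correction, leaving out both libraries and the count tests without BAQ12 replicate 3 were chosen after seeing the data. At this depth and with 3 libraries a group, genes with few reads, such as CHMP6 and UHRF1, have wide intervals.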
